A study of Mus musculus with 32 samples.

Results

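The fatty acid desaturases are the enzymes that put double bonds into fatty acyl chains. Here they were taken as the 8 mouse genes Scd1, Scd2, Scd3, Scd4, Fads1, Fads2, Fads3 and Fads6, by every array probe that carries one of these gene names in the scanner files and is also in the deposited expression matrix. The array held 23 such probes, and 19 of them, from all 8 of these genes, were in the matrix of 37304 probes, beside 24523 genes measured in all. Scd1 had 2 of these probes, Scd2 had 1, Scd3 had 3, Scd4 had 2, Fads1 had 3, Fads2 had 5, Fads3 had 2 and Fads6 had 1. The other 4 probes (2 of Fads6, 1 of Scd3 and 1 of Scd4) met the detection criteria on 0 to 9 of 32 arrays and were left out.

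RNA of interscapular brown adipose tissue was measured on 32 one-colour arrays from male C57BL6/J mice in 4 groups of 8. Total ChREBP KO mice lack both isoforms of the glucose-responsive transcription factor ChREBP, the product of Mlxipl, and total-line WT mice are their littermates. ChREBPβ KO mice carry a CRISPR/Cas9 deletion of the exon that only the short β isoform uses, and ChREBPβ-line WT mice are their littermates. Both deletions are whole-body, so the brown fat of a KO mouse also comes from an animal that lacks the factor in liver and elsewhere. All mice, WT included, were fasted for 24 hours and then refed for 18 hours with food and 20% glucose in the drinking water. The age of the mice was not given in the sources used here.

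In the mouse, Scd1 to Scd4 encode stearoyl-CoA desaturases, which convert saturated acyl-CoAs made by de novo lipogenesis into monounsaturated ones such as oleoyl-CoA. Fads1 and Fads2 act on a different pool: they add double bonds to dietary essential fatty acids on the way to long polyunsaturated chains, in turn with elongases. Fads3 desaturates sphingoid bases. All of them are membrane enzymes of the endoplasmic reticulum that take electrons from cytochrome b5, and Scd1 is a known target of both ChREBP and SREBP-1c.

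The identity of several probes bears on what follows. The brightest Scd3 probe lists transcripts of both Scd3 and Scd1, so its value cannot be assigned to either gene; its sequence is shown because it gave the largest fold change of all desaturase probes. The 2 Fads2 probes below show how a single gene was sampled at separate places, the first spanning more of the genome than its own length, the second further upstream on the same strand. No letters are in capitals in these 3 probe sequences.
A_55_P2099594 (Scd3 and Scd1, mm9 chr19:44289995-44290054, plus strand): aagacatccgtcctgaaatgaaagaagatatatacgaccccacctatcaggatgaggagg
A_51_P364609 (Fads2, mm9 chr19:10138750-10139180, minus strand): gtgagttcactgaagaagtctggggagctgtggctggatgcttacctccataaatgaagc
A_66_P130115 (Fads2, mm9 chr19:10163229-10163288, minus strand): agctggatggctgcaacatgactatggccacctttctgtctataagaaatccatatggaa

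The second Scd1 probe, A_55_P2743499, was designed on a cDNA clone and its mm9 coordinates run upwards, at chr19:44471140-44471199, whereas those of the first Scd1 probe, A_52_P682382, run downwards, at chr19:44469387-44469446. By that order the 2 probes lie on opposite strands, so it is uncertain whether the second reads Scd1 itself. The brightest Scd4 probe lists transcripts of Ube2l6, 2610524H06Rik and Prss35 beside those of Scd4. A second Scd3 probe (A_55_P2052759) and a second Scd4 probe (A_55_P2011872) list 1 gene each.

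RefSeq's promoter table (GRCm38.p6) held 5 of the 8 genes: Scd3, Scd4, Fads2, Fads3 and Fads6. Scd1, Scd2 and Fads1 were not listed. The 250 bases before the start were searched on both strands for the E-box CACGTG, the CCAAT box CCAAT, the sterol response element TCACNCCAC and the carbohydrate response element consensus, which can contain the E-box. Among 32851 promoters of the same length, 6.02%, 33.8%, 1.05% and 0.0974% held a match. The only matches in the 5 promoters were 2 CCAAT boxes of Fads3, which start 106 and 78 bases before the start of the gene. The Fads3 promoter is shown with these in capitals, and that of Scd3 beside it, with no capitals as none of the 4 motifs was found.
Fads3 (GRCm38.p6 chr19:10041298-10041547, plus strand): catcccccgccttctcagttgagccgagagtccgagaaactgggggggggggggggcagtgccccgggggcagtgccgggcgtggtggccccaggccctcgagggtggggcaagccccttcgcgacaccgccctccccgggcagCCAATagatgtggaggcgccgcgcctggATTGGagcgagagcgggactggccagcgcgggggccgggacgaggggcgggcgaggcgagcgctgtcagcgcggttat
Scd3 (GRCm38.p6 chr19:44203038-44203287, plus strand): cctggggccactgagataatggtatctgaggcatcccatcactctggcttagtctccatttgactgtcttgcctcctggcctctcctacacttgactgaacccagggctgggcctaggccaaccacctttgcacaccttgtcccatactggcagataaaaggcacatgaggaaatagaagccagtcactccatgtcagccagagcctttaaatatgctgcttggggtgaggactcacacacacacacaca

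Values are quantile normalized log2 intensities, and unless another probe is named, each gene stands for the probe with its highest mean. Changes were tested with limma over all 37306 probes that passed the filter, and a gene was called at a Benjamini-Hochberg adjusted p under 0.05. The targeted gene was checked first: the Mlxipl probe fell in total ChREBP KO (log2 fold change against its WT -2.48 ± 0.0658 (SE), adjusted p = 2.06e-24) and in ChREBPβ KO (-1.50 ± 0.0658, adjusted p = 7.47e-17), in 8 of 8 KO arrays each. The brown adipocyte markers were high on all arrays, with a mean of 8 genes between 14.2 and 15.3 on the log2 scale. The mean of 8 liver markers ranged from 6.67 to 11.6 in total-line WT, 7.04 to 9.60 in total ChREBP KO, 6.34 to 12.9 in ChREBPβ-line WT and 6.30 to 12.5 in ChREBPβ KO. The mean of 8 skeletal muscle markers was 12.7 to 15.8 in the total line and 5.74 to 11.6 in the ChREBPβ line, so the lines themselves differed in this respect. No spot was saturated.

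In total ChREBP KO brown fat, 4 of the 8 desaturases were lower than in WT (Scd1, Scd2, the probe shared by Scd3 and Scd1, and Fads2) and none was higher, where 21.1% of 24523 genes were called lower and 23.0% higher. Their median log2 fold change was -0.33, beside 0.01 for all genes. On 3 of the 8 genes every KO array lay below every WT array, a pattern held by 8.41% of all genes. Over the single probes, 10 of 19 were called lower and none higher, where 20.5% of all probes were called lower. The fall was large for Scd1, Scd2 and the shared probe and small for Fads2, and Scd4 was not called.

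Scd1 ranged from 17.86 to 18.12 (median 17.94) in total-line WT, from 15.76 to 16.72 (median 16.10) in total ChREBP KO, from 17.45 to 18.03 (median 17.71) in ChREBPβ-line WT and from 16.73 to 17.82 (median 17.50) in ChREBPβ KO. Every total KO array was below every array of the other 3 groups, and the 8 WT arrays of that line had an SD of 0.0857. The log2 fold change was -1.77 ± 0.136 (SE), a 3.41-fold lower level (limma, adjusted p = 2.13e-12, 8 of 8 arrays). As unprocessed intensity, Scd1 lay between 251833 and 279432 in the WT arrays and between 41992 and 104574 in the KO arrays.

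Scd2, the isoform best known from brain and from early postnatal skin, ranged from 15.99 to 16.39 (median 16.19) in total-line WT and from 14.16 to 15.36 (median 14.65) in total ChREBP KO. It ranged from 15.59 to 16.29 (median 15.96) in ChREBPβ-line WT and from 15.50 to 16.21 (median 16.06) in ChREBPβ KO. The total KO arrays again lay apart from all others, with a log2 fold change of -1.50 ± 0.134 (SE), a 2.83-fold lower level (adjusted p = 6.29e-11). The fall did not have quite the size of that of Scd1: on the same arrays the log2 difference between Scd1 and Scd2 was 1.78 ± 0.133 (SD, n = 8) in WT and 1.51 ± 0.161 (SD, n = 8) in KO (exact permutation test over 12870 splits, two-sided, p = 0.00482, adjusted over 16 tests p = 0.00963). The difference in change was -0.27 on the log2 scale. In total-line WT the Scd1 probe ranked 35 to 68 of 59305 spots by intensity and the Scd2 probe 445 to 707. Whether probes this bright read a change in full was not tested.

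The probe shared by Scd3 and Scd1 ranged from 12.26 to 13.11 (median 12.74) in total-line WT and from 9.57 to 10.56 (median 9.91) in total ChREBP KO. It ranged from 11.83 to 12.75 (median 12.23) in ChREBPβ-line WT and from 10.75 to 12.35 (median 11.88) in ChREBPβ KO. Its log2 fold change in total ChREBP KO was -2.70 ± 0.179 (SE), a 6.52-fold lower level (adjusted p = 6.18e-14). It fell by more than the Scd1 probe, with a difference in change of 0.94 on the log2 scale (exact permutation test, p = 0.000155, the smallest the splits allow; adjusted p = 0.000497), in 8 of 8 KO arrays. In total-line WT the Scd1 probe ranked 35 to 68 of 59305 spots by intensity and the shared probe 4857 to 6257. Whether probes of such unlike brightness read a change equally was not tested.

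The other 2 Scd3 probes, which list no other gene, did not move together. A_55_P2727843, a dim probe between 4.55 and 6.01, was lower in total ChREBP KO (-0.69 ± 0.116 (SE), adjusted p = 1.12e-05) although the groups overlapped, and it was well above background on 8 WT and 5 KO arrays. It was called in all 13 alternative settings that measured it, but its size depended on them, from -1.42 with Agilent's processed signal to -0.36 with normexp background correction. A_55_P2052759, between 7.92 and 8.53 on all 32 arrays, had a log2 fold change of 0.06 (95% confidence interval -0.07 to 0.19, adjusted p = 0.490). It met all detection criteria on 22 of 32 arrays, with 5 of 8 in total-line WT and 5 of 8 in total ChREBP KO. With each gene read by its brightest single-gene probe, a choice added after the data were seen, A_55_P2052759 stood for Scd3 and 3 desaturases were lower instead of 4.

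The second probe at the Scd1 locus, A_55_P2743499, was lower as well. It ranged from 10.65 to 11.75 (median 11.20) in total-line WT and from 8.46 to 9.71 (median 8.99) in total ChREBP KO, with no overlap. Its log2 fold change was -2.32 ± 0.233 (SE), a 5.0-fold lower level (adjusted p = 8.58e-10). Over the 32 arrays its Pearson r with the Scd1 probe was 0.954, and 0.759 over deviations from the group means.

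Scd4, the isoform first described in heart, was not called. Its brightest probe, which lists other genes too, ranged from 10.13 to 10.94 in total-line WT and from 10.40 to 10.75 in total ChREBP KO (log2 fold change 0.25 ± 0.118 (SE), adjusted p = 0.0876). It was called higher without total-line WT replicate 5 (0.29, adjusted p = 0.0486) and without total-line WT replicate 8 (0.33, adjusted p = 0.0158). The gene-specific Scd4 probe lay between 5.52 and 6.14 on all arrays, with a log2 fold change of -0.08 in total ChREBP KO (adjusted p = 0.446). The change of Scd1 minus that of this brightest Scd4 probe was -2.02 on the log2 scale (exact permutation test, adjusted p = 0.000497).

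**Figure D1:**
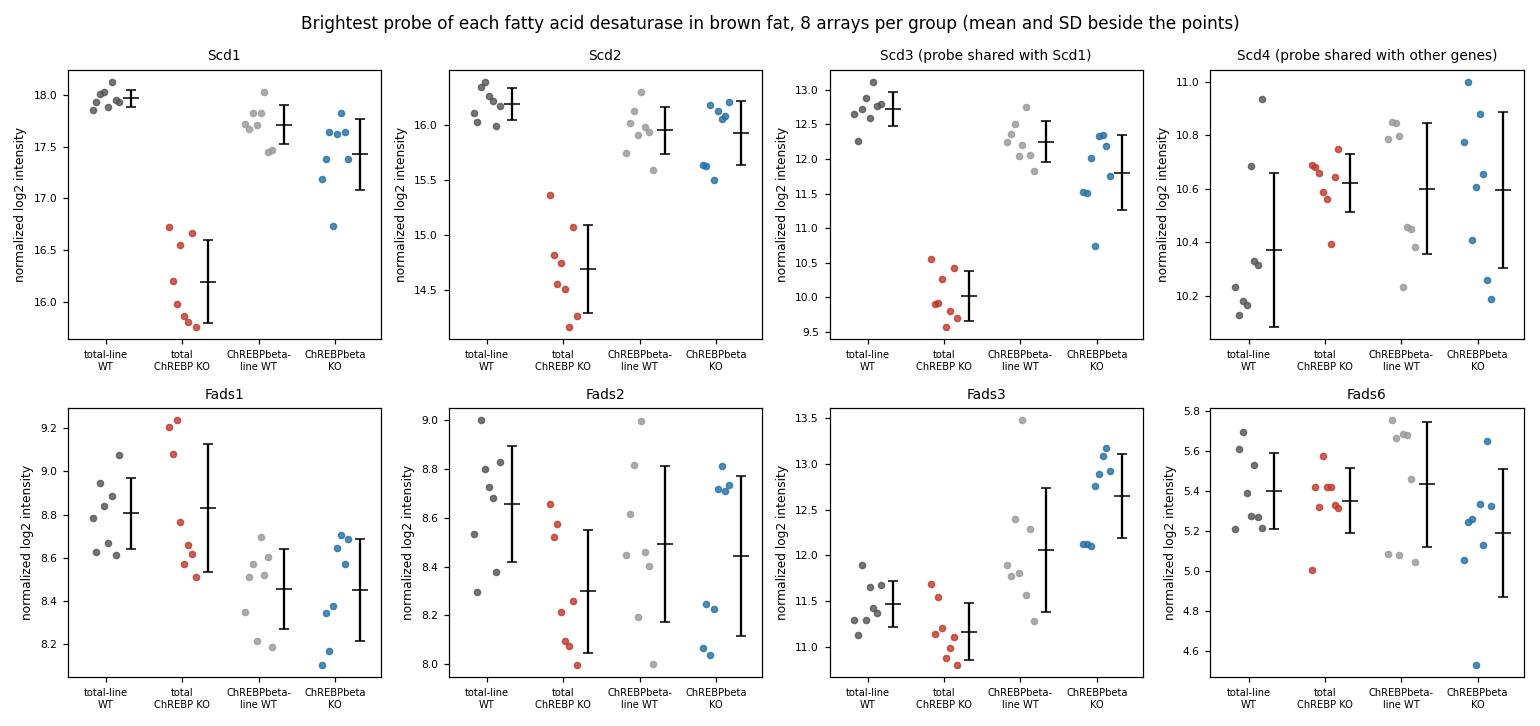
Normalized log2 intensity (vertical axis, a separate scale in each panel) of the brightest probe of each of the 8 desaturases. Each point is 1 of 8 arrays of a group, and the bar beside the points is the mean with the SD. The total ChREBP KO arrays of Scd1, Scd2 and the shared Scd3 probe sit below every other array, and the Fads3 arrays of the ChREBPβ line sit mostly above those of the total line.

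Fads1, which completes arachidonic acid synthesis, ranged from 8.61 to 9.08 (median 8.81) in total-line WT and from 8.51 to 9.24 (median 8.71) in total ChREBP KO. The groups overlapped over most of their range, and the log2 fold change was 0.03 (95% confidence interval -0.20 to 0.25, adjusted p = 0.871). The other 2 Fads1 probes had log2 fold changes of 0.14 (adjusted p = 0.371) and 0.13 (adjusted p = 0.195).

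Fads2, the rate-limiting enzyme of polyunsaturated fatty acid synthesis, ranged from 8.29 to 9.0 (median 8.70) in total-line WT and from 8.0 to 8.65 (median 8.24) in total ChREBP KO. The groups overlapped, but all 8 KO arrays lay below the WT mean, with a log2 fold change of -0.36 ± 0.138 (SE), a 1.28-fold lower level (adjusted p = 0.0356). This call was lost, with adjusted p between 0.0502 and 0.0801, on leaving out any one of total-line WT replicates 3, 4, 5, 6 and 8 or total ChREBP KO replicates 4, 5, 6 and 8, where the log2 fold change was -0.35 to -0.31. Of the other 4 Fads2 probes, A_55_P2739989 (-0.50, adjusted p = 0.000117), A_65_P20641 (-0.49, adjusted p = 0.00218) and A_66_P130115 (-0.25, adjusted p = 0.0488) were also lower. The last of these, a dim probe, was called in 8 of 14 alternative settings, with log2 fold changes of -0.53 to -0.12 and an adjusted p of up to 0.479. A_55_P2729398 had a log2 fold change of 0.00 (adjusted p = 0.990).

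Fads1 and Fads2 lie side by side on chromosome 19 and changed unequally within the same arrays. The log2 difference Fads1 minus Fads2 was 0.15 ± 0.152 (SD, n = 8) in WT and 0.53 ± 0.0888 (SD, n = 8) in KO, a difference in change of 0.38 (exact permutation test, p = 0.000155, adjusted p = 0.000497) seen in 8 of 8 KO arrays. The change of Scd1 minus that of Fads2 was -1.41, and minus that of Fads1 -1.80 (both adjusted p = 0.000497, exact permutation test).

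Fads3 ranged from 11.13 to 11.89 (median 11.40) in total-line WT and from 10.80 to 11.68 (median 11.12) in total ChREBP KO. The brightest probe was not called (-0.30 ± 0.215 (SE), adjusted p = 0.276). The other Fads3 probe, A_55_P1976097, was lower (-0.51 ± 0.181 (SE), adjusted p = 0.0213) in 8 of 8 KO arrays. The difference Fads2 minus Fads3 changed by -0.06 (exact permutation test, p = 0.448), whereas Fads1 minus Fads3 changed by 0.33 (adjusted p = 0.00166, exact permutation test). Fads6 was dim, between 4.53 and 5.75 on all arrays, and its log2 fold change was -0.05 (adjusted p = 0.787).

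**Figure D2:**
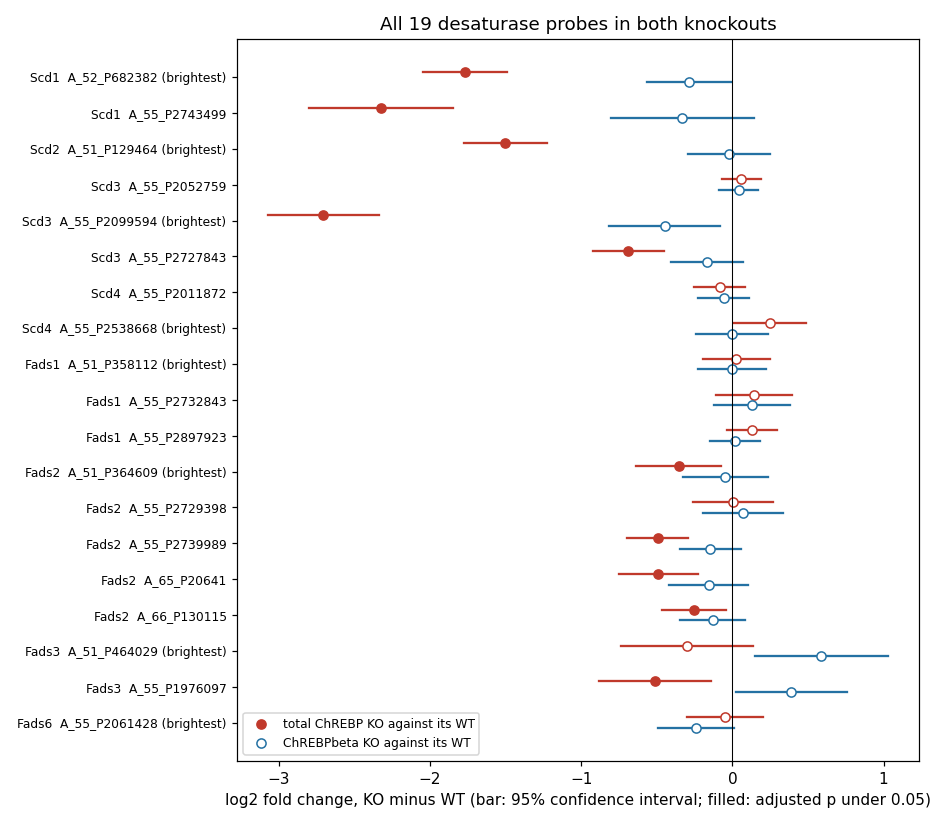
Log2 fold change, KO minus WT, of all 19 desaturase probes (horizontal axis) in total ChREBP KO (red) and ChREBPβ KO (blue), with 95% confidence intervals; filled points have an adjusted p under 0.05. All 10 filled points belong to total ChREBP KO and lie below 0, with the shared Scd3 probe at -2.70 farthest left.

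The falls were present in each of the 4 wash batches, in which the arrays had been washed, of 1 to 3 arrays a group. Scd1 differed between total ChREBP KO and WT by -1.77, -2.05, -2.12 and -1.33 on the log2 scale in batches 1 to 4. Scd2 differed by -1.66, -1.63, -1.84 and -0.97, and the shared Scd3 probe by -2.77, -2.86, -2.96 and -2.46. Fads2 differed by -0.46, -0.42, -0.42 and -0.30. Batch 4 had the smallest difference for each of these 4 genes. The macrophage marker mean of 6 genes was also lower in total ChREBP KO (9.52 to 9.89) than in WT (9.96 to 10.7), and its part in these differences was not tested. Since this is whole tissue, fewer cells of a type and less RNA per cell cannot be told apart.

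In ChREBPβ KO brown fat none of the 8 desaturases was called, where 2.70% of all genes were called in either direction. At an unadjusted p under 0.05, 3 of the 8 genes passed (Scd1, the shared Scd3 probe and Fads3), where 14.1% of all genes did, and none of the 19 probes passed the adjusted threshold. The log2 fold change was -0.29 for Scd1 (95% confidence interval -0.56 to -0.01, adjusted p = 0.344), -0.02 for Scd2 (-0.30 to 0.25, adjusted p = 0.976) and -0.45 for the shared Scd3 probe (-0.81 to -0.08, adjusted p = 0.215). It was -0.01 for Fads1 (-0.23 to 0.22, adjusted p = 0.993) and -0.05 for Fads2 (-0.33 to 0.23, adjusted p = 0.947). Scd4 was at 0.00 (adjusted p = 0.994) and Fads6 at -0.24 (adjusted p = 0.393).

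Fads3 had the only positive log2 fold change of the 8 genes, and was not called. It ranged from 11.28 to 13.48 (median 11.85) in ChREBPβ-line WT and from 12.10 to 13.17 (median 12.83) in ChREBPβ KO, and all 8 KO arrays lay above the WT mean. The groups overlapped, and WT replicate 5, at 13.48, was the highest of all 32 arrays. The log2 fold change was 0.59 ± 0.215 (SE, adjusted p = 0.162), and without that array it was 0.79 (adjusted p = 0.00709), the only 1 of 16 omissions of an array of this line that gave a called desaturase. The same array had the lowest brown adipocyte marker mean of all 32 (14.2) and the highest muscle marker mean of the ChREBPβ line (11.6). Over deviations from the group means on the 32 arrays, the Pearson r of Fads3 was -0.621 with the brown adipocyte list and 0.484 with the muscle list. With the liver and muscle means as covariates, the Fads3 change in ChREBPβ KO was 0.66 (adjusted p = 0.0597).

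Within the ChREBPβ KO group the wash batches did not read alike. Fads2 lay between 8.04 and 8.24 on the 4 arrays of batches 1 and 2 and between 8.71 and 8.81 on the 4 arrays of batches 3 and 4. Fads1 lay between 8.10 and 8.37 on the first set and between 8.57 and 8.70 on the second, and Fads3 between 12.10 and 12.76 and between 12.89 and 13.17. The sets did not overlap for any of these 3 genes. They overlapped for Scd1 (16.73 to 17.64 and 17.38 to 17.82), Scd2, the shared Scd3 probe, Scd4 and Fads6. How many of all genes split in this way was not counted. The tissue markers moved with the same split: the liver marker mean was 6.30 to 11.6 in the first set and 10.03 to 12.5 in the second, and the muscle marker mean 5.95 to 7.70 and 7.59 to 10.98. Over deviations from the group means on the 32 arrays, the Pearson r of Fads2 with the muscle list was 0.482. This r was similar for the shared Scd3 probe (0.468) and Scd1 (0.459). For Scd2, Scd4, Fads1 and Fads6 it was -0.148 to 0.287. In the other groups the 2 sets of batches overlapped for each of Fads1, Fads2 and Fads3. There the Fads2 means of the first and second set were 8.71 and 8.61 in total-line WT and 8.35 and 8.25 in total ChREBP KO. They were 8.52 and 8.46 in ChREBPβ-line WT, against 8.14 and 8.74 in ChREBPβ KO. The parts of wash batch and of liver and muscle tissue were not tested. Fads2 differed between ChREBPβ KO and WT by -0.47 and -0.34 in batches 1 and 2. In batches 3 and 4 it differed by 0.32 and 0.33. The brightest Fads3 probe was higher in KO in all 4 batches (0.67, 0.08, 0.71 and 0.97). The other Fads3 probe was higher in batches 1, 3 and 4 (0.55, 0.64 and 0.67) and lower in batch 2 (-0.13). For Scd1 the 4 differences were -0.71, -0.24, 0.10 and 0.05.

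The exact tests within arrays separated the desaturases in ChREBPβ KO as well. Fads3 rose relative to Fads2 by 0.63 on the log2 scale (adjusted p = 0.00963, exact permutation test) and relative to Fads1 by 0.59 (adjusted p = 0.0329, exact permutation test), in 8 of 8 KO arrays each. Scd1 fell relative to Scd2 by 0.26 in 7 of 8 KO arrays (exact permutation test, adjusted p = 0.0408), but this was not past the threshold with Agilent's processed signal (adjusted p = 0.136) or with labels permuted within wash batches (adjusted p = 0.191). The other 5 pairs did not pass in ChREBPβ KO.

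**Figure D3:**
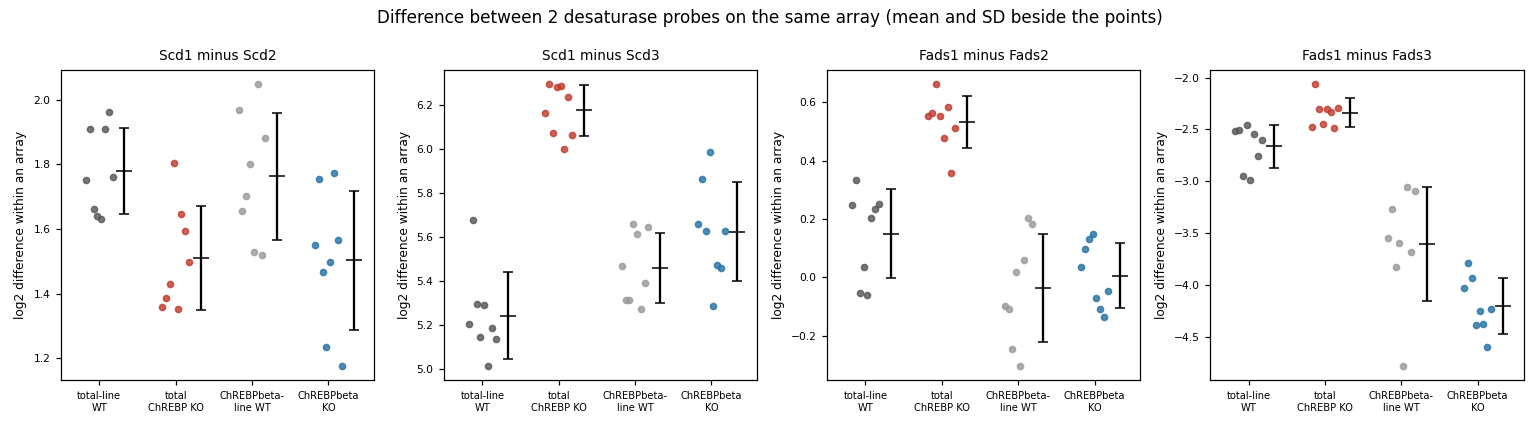
Log2 difference between 2 desaturase probes on the same array (vertical axis) for 4 pairs, with 8 arrays per group as points and the mean with the SD beside them. Scd1 minus the shared Scd3 probe (panel Scd1 minus Scd3) rises from 5.24 in total-line WT to 6.18 in total ChREBP KO. Fads1 minus Fads2 rises there from 0.15 to 0.53, while Fads1 minus Fads3 falls in ChREBPβ KO.

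The difference between the knockouts was tested directly, as the ChREBPβ KO effect minus the total ChREBP KO effect. It was above 0 for 4 of the 8 genes and below 0 for none, where 12.2% of all genes were called above 0. The difference was 1.48 ± 0.192 (SE, adjusted p = 5.05e-07) for Scd1, 1.48 ± 0.189 (adjusted p = 4.06e-07) for Scd2 and 2.26 ± 0.253 (adjusted p = 3.16e-08) for the shared Scd3 probe. For these 3 the value in total ChREBP KO lay further below 0. The Scd3 probes that list no other gene disagreed here. A_55_P2052759 was not called (-0.02, adjusted p = 0.919). The dim A_55_P2727843 differed by 0.52 (adjusted p = 0.0189) and was called in 9 of 12 alternative settings. Fads3 differed by 0.89 ± 0.304 (SE, adjusted p = 0.0316), with values of -0.30 in one knockout and 0.59 in the other, neither of them called on its own, and its other probe by 0.90 ± 0.257 (adjusted p = 0.00922). The Fads3 call was lost, with adjusted p from 0.0503 to 0.0557, on leaving out total-line WT replicate 3, total ChREBP KO replicate 8, ChREBPβ-line WT replicate 6 or 8, or ChREBPβ KO replicate 6 or 7, where the difference was 0.77 to 0.83. Fads2, called in total ChREBP KO and not in ChREBPβ KO, was not shown to differ between them (0.31 ± 0.195, adjusted p = 0.275).

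The WT groups of the 2 lines also differed. So did their markers of other cells: beside muscle, the white adipocyte mean of 6 genes was 8.98 to 9.64 in total-line WT and 8.28 to 8.94 in ChREBPβ-line WT, and the macrophage mean 9.96 to 10.7 and 9.41 to 10.08, and their part in the differences below was not tested. ChREBPβ-line WT was lower than total-line WT for Fads1 (-0.35 ± 0.110 (SE), adjusted p = 0.0114) and for the shared Scd3 probe (-0.47 ± 0.179, adjusted p = 0.0357), where 14.1% of all genes were called lower. It was higher for Fads3 (0.59 ± 0.215, adjusted p = 0.0279), where 24.8% were called higher. Scd1 (-0.25, adjusted p = 0.140) and Scd2 (-0.24, adjusted p = 0.159) were not called. Probes of 1 gene disagreed here: Fads1 A_55_P2732843 was higher by 0.60 (adjusted p = 0.000211), with no overlap between the groups, and Fads2 A_55_P2729398 was higher by 0.39 (adjusted p = 0.0160) while Fads2 A_55_P2739989 (-0.33, adjusted p = 0.00751) and A_65_P20641 (-0.43, adjusted p = 0.00784) were lower. With the liver and muscle means as covariates the shared Scd3 value was 0.14 ± 0.283 (SE, adjusted p = 0.808). Fads1 was -0.20 (adjusted p = 0.553) and Fads3 was 1.39 (adjusted p = 0.00736). The muscle means of the WT groups did not overlap (12.7 to 15.8 in total-line WT, 5.74 to 11.6 in ChREBPβ-line WT). Line and muscle content therefore cannot be told apart in this comparison.

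The WT difference of the shared Scd3 probe was not called without any one of total-line WT replicates 4, 6, 7 and 8 or ChREBPβ-line WT replicates 4, 7 and 8 (-0.46 to -0.41, adjusted p from 0.0510 to 0.0777). That of Fads3 was not called without total-line WT replicate 2 (0.54, adjusted p = 0.0552), ChREBPβ-line WT replicate 3 (0.54, adjusted p = 0.0550) or ChREBPβ-line WT replicate 5 (0.39, adjusted p = 0.0790). Without the arrays whose liver marker mean exceeded 10, likewise added after the data were seen, which kept 7, 8, 4 and 3 arrays of total-line WT, total ChREBP KO, ChREBPβ-line WT and ChREBPβ KO, Fads3 differed between the WT groups by 0.33 (adjusted p = 0.190). The counts of called desaturases there were 4 in total ChREBP KO, 0 in ChREBPβ KO, 4 in the difference and 2 in the WT comparison. Of all 37306 probes, 15956, 298, 5695 and 12597 were called there in either direction, in the same order.

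The genes around the desaturases were read from the mouse gene table. On chromosome 19 the genes next to the Fads cluster were Rab3il1 and Best1 on one side and Fen1 and Tmem258 on the other. All 4 were lower in total ChREBP KO, where 21.1% of all genes were called lower. Their log2 fold changes were -0.55 ± 0.109 (SE), -0.39 ± 0.0657, -0.61 ± 0.0893 and -0.12 ± 0.0405 in that order (adjusted p = 0.000121, 1.06e-05, 1.35e-06 and 0.0163). None was called in ChREBPβ KO, where 2.70% of all genes were called. Next to the Scd cluster only Bloc1s2 passed the filter, and it was lower in total ChREBP KO (-0.53 ± 0.0603, adjusted p = 1.42e-08). Pkd2l1 and Wnt8b did not pass the filter, and no probe was named for Gm35406.

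The profiles most like those of the desaturases over the 32 arrays were named by Pearson r, as a description, since the arrays share group, line and RNA preparation. For Scd1 they were the shared Scd3 probe (0.985), Sc5d, a sterol desaturase (0.966), and Wbp2 (0.965). For Scd2 they were ENSMUST00000098589 (0.972), Sc5d (0.968) and Scd1 (0.959), and for the shared Scd3 probe Scd1 (0.985), Wbp2 (0.966) and Sc5d (0.965). For Fads3 they were Nek6 (0.932), Ccnd1, a cyclin of the start of the cell cycle (0.908), and Med27 (0.906). For the brightest Scd4 probe, Ube2l6 came first (0.789), which is 1 of the genes that probe lists, before Grm5 (0.757) and Wdr62 (0.752). For Fads1 they were Igfbp4 (0.772), Serpina3n (0.764) and Krtap11-1 (0.759).

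Over deviations from the group means, which leave out the differences between groups, Fads2 was the nearest profile to Fads1 (0.879). Haus7 (0.794) and Tgm2 (0.763) followed. The nearest to Fads3 were Ccnd1 (0.845), Nek6 (0.835) and Fads2 (0.829). Scd1 had the shared Scd3 probe (0.888), Sc5d (0.807) and Golga7b (0.803), and the shared Scd3 probe had Scd1 (0.888), Golga7b (0.833) and Ncan (0.804). Scd2 had ENSMUST00000098589 (0.831), Pmvk, an enzyme of the mevalonate pathway (0.822), and Rasa3 (0.809). The brightest Scd4 probe had Wdr62 (0.874), Ube2l6 (0.856) and ENSMUST00000117983 (0.846).

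The steps around desaturation were compared by lists of genes. Of 6 genes of de novo fatty acid synthesis, 5 were lower in total ChREBP KO and none was higher: Acly, the source of cytosolic acetyl-CoA (-3.57 ± 0.0891 (SE), adjusted p = 3.54e-25), Acaca (-3.49), Me1 (-2.56), Fasn (-1.80) and Acacb (-1.43). The list's median log2 fold change was -2.18. In ChREBPβ KO only Mcat was called lower (-0.19 ± 0.0477, adjusted p = 0.0272). Fasn lay between 18.80 and 18.85 on every array of both WT groups and of ChREBPβ KO. Its log2 fold change in ChREBPβ KO was 0.01. Quantile normalization gives each rank the same value on every array, so a probe that keeps its rank reads no change. The 0.01 therefore does not show that Fasn was unchanged, and whether so bright a probe can register a small change was not tested. Of 13 genes of the elongation cycle, 8 were lower and 1 higher in total ChREBP KO, led by Elovl3, the elongase of very long saturated chains (-3.16 ± 0.407, adjusted p = 1.26e-07), with Elovl4 higher (0.51 ± 0.188, adjusted p = 0.0273). In ChREBPβ KO 1 was lower, Elovl5, which elongates polyunsaturated chains (-0.48 ± 0.127, adjusted p = 0.0310).

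Of 5 long-chain acyl-CoA synthetases, which supply the desaturases with acyl-CoA, 3 were lower in total ChREBP KO (Acsl5, Acsl3 and Acsl4) and 1 was higher, Acsl1 (0.74 ± 0.0776 (SE), adjusted p = 1.94e-09). Acsl5 was lower in both knockouts, with a log2 fold change of -3.41 ± 0.208 in total ChREBP KO (adjusted p = 8.05e-15) and -1.28 ± 0.208 in ChREBPβ KO (adjusted p = 0.000404), where no desaturase was called. Of 5 measured genes of the electron chain that serves the desaturases, 2 were lower in total ChREBP KO, the cytochrome b5 reductases Cyb5r3 (-0.65 ± 0.0811, adjusted p = 7.88e-08) and Cyb5r4 (-0.34), and none was called in ChREBPβ KO; Cyb5a, the cytochrome b5 itself, had a log2 fold change of 0.02 (adjusted p = 0.885). Cyb5r2 did not pass the filter. Of the 3 measured sphingolipid and other lipid desaturases, Degs1 was higher in total ChREBP KO (0.27 ± 0.0559, adjusted p = 0.000203), Degs2 and Tmem189 were not called, and none was called in ChREBPβ KO. Faxdc2 was not measured.

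Of 12 regulators, 5 were lower and 4 higher in total ChREBP KO. Beside Mlxipl, Srebf1 was lower, which encodes SREBP-1, an activator of Scd1, Fads1 and Fads2 (-1.04 ± 0.103 (SE), adjusted p = 6.38e-10). It ranged from 15.39 to 15.73 in WT and from 14.14 to 14.81 in KO. Mlx, the partner of ChREBP, Insig1 and Insig2 made up the rest of the lower genes. Ppara, a nuclear receptor of fatty acid oxidation, was higher (1.51 ± 0.0924, adjusted p = 8.83e-15), together with Nr1h3, Ppard and Pparg. In ChREBPβ KO, Srebf1 was not called (-0.18 ± 0.103, adjusted p = 0.461), Mlxipl was lower and Ppard was higher (0.22 ± 0.0523, adjusted p = 0.0178).

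**Figure D4:**
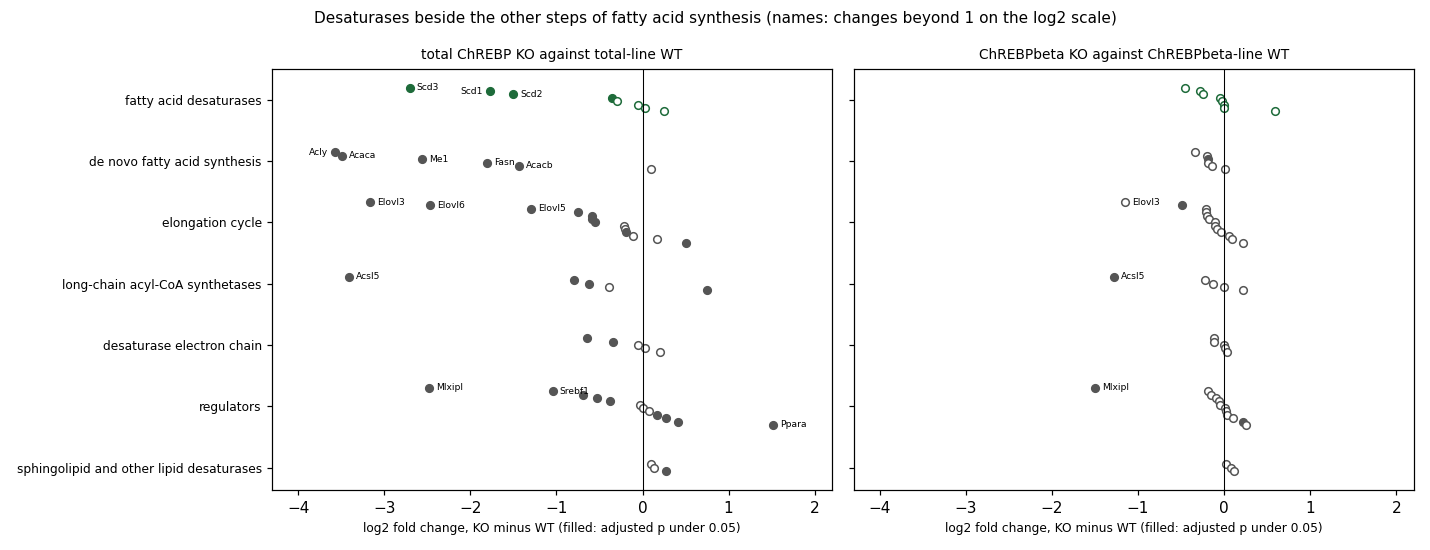
Log2 fold change, KO minus WT (horizontal axis), of the 8 desaturases (green) and of the genes of 6 related lists (grey), 1 point per gene by its brightest probe, in total ChREBP KO (left) and ChREBPβ KO (right). Filled points have an adjusted p under 0.05, and names mark changes beyond 1 on the log2 scale, called or not: in total ChREBP KO these include the 3 leftmost desaturases, and in ChREBPβ KO no desaturase.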

How the data were processed

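RNA of brown fat was hybridised to 1-colour Agilent mouse arrays and, per the labels, read with Agilent Feature Extraction 10.10.1.1. The files deposited by the authors hold unnormalized median, mean and processed intensity per spot. The authors' value table holds log2 intensity after spot filtering, quantile normalization and the median of replicated probes. These steps were repeated from the median intensities: of 59305 spots that are not controls, 39985 (37306 probes) were kept, those that Agilent's software flagged as found, significantly positive and clear of background on 26 or more of 32 arrays, or on 6 or more of 1 group. The mean absolute difference from the deposited log2 values was 0.0113. Per array, 64.4% to 71.1% of these spots were clear of background; the number of arrays limits the precision.

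Groups came from the labels, 8 mice each. limma 3.58.1 (R 4.3.3) was fitted to 4 group means over 32 arrays, with Benjamini-Hochberg adjustment over all probes; its standard errors share information across probes, and it was tested on simulated data. A gene was represented by its brightest probe, the one with the highest mean over 32 arrays. Unequal change of 2 genes was tested with an exact permutation test, two-sided. Named genes were the members, the target, the leading called genes of each list in each direction and knockout, the nearest profiles and the neighbouring genes; the other genes that complete a count were named after their values were seen. The members and lists were chosen with earlier results of these data known. Alternatives were the background correction, scaling, filter, probe choice, threshold, deposited table, wash batch, slide, replicate number, array weights, samples and marker covariates. Probe coordinates are those of the scanner files, of build mm9, and the gene table is of GRCm38.p6; they were not mixed.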

Additional observations from a re-analysis of the deposited data

Results flagged for a closer look

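The effects of the 2 knockouts differed for 4 desaturases by limma's test of the difference, as the ChREBPβ KO effect minus the total ChREBP KO effect on the log2 scale: Scd1 by 1.48, Scd2 by 1.48, the probe shared by Scd3 and Scd1 by 2.26 and Fads3 by 0.89.

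A single array lay apart from the other 7 of its group in 4 of 76 sets of a probe and a group, where chance alone gives about 1 in 20. Fads2 A_55_P2729398 was at 7.27 in ChREBPβ KO replicate 5, with the nearest array at 6.69, and at 5.61 in total ChREBP KO replicate 8, with the nearest at 6.04. Scd3 A_55_P2052759 was at 7.92 in total-line WT replicate 6, with the nearest at 8.13. Fads6 was at 5.01 in total ChREBP KO replicate 1, with the nearest at 5.32. None of these was a brightest probe of a called gene.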

How the results depend on the processing

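Scd1, Scd2 and the probe shared by Scd3 and Scd1 stayed called lower in total ChREBP KO under every alternative that used the same probe. So did the mean of a gene's probes, which for Scd3 includes the shared probe. The log2 fold changes were -2.05 to -1.69, -1.60 to -1.43 and -2.79 to -1.11 in that order. The Scd3 probe A_55_P2052759, which lists no other gene, was called in 0 of 13 alternative settings in total ChREBP KO. The count of called desaturases there was 4, and 3 to 4 over single omissions; with the replicate number as a block it was 3, since Fads2 missed the threshold (-0.36, adjusted p = 0.0508), and that block changed no other desaturase call. The labels give the numbers no meaning, and not every same-numbered pair of WT and KO arrays correlated over 0.1: 0 of 8 did in the total line (r up to 0.0802) and 6 of 8 in the ChREBPβ line (r -0.196 to 0.532), where 1 of 8 KO arrays was nearest to the WT array of its own number. In ChREBPβ KO the count was 0, and 0 to 1 over single omissions. The difference gave 4, and 3 to 4 over single omissions. The WT comparison gave 3, and 2 to 3 over single omissions. It fell to 1 with the slide as a fixed block, to 1 with marker covariates and to 1 at 1.5-fold or more. At an adjusted p under 0.01 it fell to 0. Of all 37306 probes of the WT comparison, 13890 were called with the slide as a fixed block and 4518 with marker covariates. There the shared Scd3 value turned from -0.47 to 0.14 with marker covariates and Fads1 from -0.35 to 0.10 with the mean of its probes; the cause was not tested. Unequal pairs numbered 10 of 16, and 9 both with the processed signal and within wash batches. Of 1104 gene values under alternatives, 31 lost a call, 8 gained one and 2 turned; 55 more changed sign where neither value was called. Fads6, 1 gene-specific probe each of Scd3 and Scd4, 1 Fads1 probe and Fads2 A_66_P130115 were dim, which limits what they can show.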
